A study of Homo sapiens with 12 samples.

Results

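The proteasome genes described here are the protein-coding genes whose symbols start with PSMA, PSMB, PSMC, PSMD, PSME, PSMF or PSMG. There were 50 of them among the 20037 protein-coding genes listed by RefSeq for GRCh38.p14, and 48 of the 50 encode subunits, chaperones or regulators of the proteasome. The other two, PSMC3IP and PSME3IP1, carry the prefix because their products bind a proteasome protein. A gene was given a peak when the peak's midpoint lay inside the gene span on the gene's strand. By this rule 30 of the 50 genes (60%) had a peak in at least 1 of 6 libraries, against 61.3% of all protein-coding genes, and 12 (24%) had one in all 6 libraries, against 29.8%.

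The data are from acetylated RNA immunoprecipitation sequencing (acRIP-seq) of SW620, a human colorectal cancer line grown in L15 medium with serum. Fragmented RNA was pulled down with an antibody against ac4C, acetylated cytidine, and enriched stretches were listed as peaks for each library. The control libraries (shControl, genotype WT, n = 3) and the NAT10-knockdown libraries (shNAT10, n = 3) differ in a short hairpin RNA against NAT10, the enzyme that writes ac4C. Both groups come from the same line, lentiviral delivery of the hairpins followed by puromycin selection is the study's general procedure, and neither the hairpin used for these libraries nor separate cultures for the replicates are stated. Where the replicates are not from separate cultures, the spread between them may be technical.

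The proteasome is the protease that degrades proteins tagged with ubiquitin. Its core particle is a barrel of alpha rings, which gate the entry, around beta rings, which hold the proteolytic sites, and its regulatory particle combines a ring of ATPases, which unfold substrates, with subunits that recognise and remove ubiquitin. Dedicated chaperones assemble both particles, alternative activators and an inhibitor bind the core, and cancer cells depend on its activity strongly enough for it to be a drug target.

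The lists held 17877 to 28752 peaks per library, with the longest list in knockdown replicate 1. Each peak carries a score that the authors deposited without a stated unit. It starts at 50, equals 3100 for 7.61% to 13.7% of peaks depending on the library, and was used here as a rank within a library. No read counts are listed, so depth is unknown, and the level of the mRNAs was not measured here. In bulk RNA, a mark in fewer cells and a weaker mark in each cell cannot be told apart. Of 9 markers of colorectal epithelium, 6 had peaks, 5 of them in all 6 libraries, with none in KRT18, KRT20 and GPA33. The sixth, CEACAM5, had 2, 1 and 3 peaks in the controls and 0 in each knockdown library. Of all genes with a peak, 0.7% had peaks throughout one group and nowhere in the other. The peak numbers of CEACAM5 are no measure of its mRNA level. None of 3 blood markers had a peak, and COL1A1 (3 libraries) and CDH5 (1 library) were the fibroblast and endothelial markers that did. NAT10 itself had 1, 0 and 2 peaks in the control and 2, 0 and 1 in the knockdown libraries, which is no measure of its mRNA level.

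A RefSeq start site is called covered, or under a peak, where a peak overlapped any of its first 50 bases of transcript. In 12 proteasome genes a start site was covered in all 6 libraries. For PSME3 the peaks of control replicates 1 and 3 began at chr17:42833411, after the start site itself. The first 30 bases at 6 of these sites are printed here from RefSeq (GRCh38.p14), 5′ to 3′ on the gene's strand. They are printed because many of the peaks shared by all libraries lay at gene starts. The last 2 sequences, from PSMD6 and PSME1, had no peak in any library and are printed for comparison. They are not typical of such sites. Over the first 50 bases they held 40% and 44% cytidine, against a median of 24% at the proteasome start sites under a peak in no library. Capitals mark cytidines, the base that NAT10 acetylates.
PSMC1, chr14:90256553-90256582, plus strand: ggtggaggaaCttCCggCagCggCagCtCa
PSMD3, chr17:39980807-39980836, plus strand: agaaggCCCagCgCCgggaaggggtttgCa
PSMD12, chr17:67366548-67366577, minus strand: gtgggtgaCgagtggtggCCgaagCagggg
PSMD13, chr11:236976-237005, plus strand: gagCatttCCggCagCCatCCCCgCggtgC
PSME3, chr17:42833397-42833426, plus strand: gCagtttCCggCgtgagCggCgaaagCCgg
PSMG1, chr21:39183422-39183451, minus strand: gtCtCgCgCaagCCggCgtgCggtCCCgCg
PSMD6, chr3:64023465-64023494, minus strand: gaCtCCtCCCgCttCCgCtgCCgCagCCgg
PSME1, chr14:24136194-24136223, plus strand: aCCgCtttCgCtttCCCttCgCggtgCCCa

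Start sites were listed for 44 of the 50 genes, 55 in all. The 12 covered in all 6 libraries (21.8% of 55, against 13.0% of 22183 start sites of all protein-coding genes) were those of PSMC1, PSMC4, PSMD1, PSMD3, PSMD9, PSMD12, PSMD13, PSMD14, PSME3, PSMG1, PSMG2 and PSMG4. For PSMG2 and PSMG4 the covered site was an internal one, 44304 and 4543 bases into the gene span, and the first listed site of PSMG2 had no peak. Over the first 50 bases of transcript, cytidine made up a median of 27% at the 12 covered sites, from 18% at PSMD12 to 36% at PSMD13, PSMG1 and PSMG2. The median over all covered sites of the genome was 30%. At the 39 proteasome start sites under a peak in no library the median was 24%, and over all such sites of the genome it was 28%. The printed start of PSME1, with 44% cytidine over the same window, was the highest of these 39.

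A run of cytidines spaced by a pair of any bases, CNNCNNCNNC, has been linked to ac4C and was searched on the sense strand of these 50 bases, where matches may overlap. It occurred at 2 of the 12 covered proteasome start sites (16.7%), those of PSMC1 and PSMD3, against 40.1% of all covered start sites and 30.9% of all start sites. On the opposite strand it occurred at 5 of the 12 (41.7%), against 59.7% of all covered sites. Among start sites under a peak in no library, the sense strand held it at 12 of 39 in proteasome genes (30.8%) and at 28.2% over all genes. PSMD6, one of these, held 6 overlapping matches.

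The core particle had few peaks. Of its 19 genes 5 (26.3%) had a peak in any library and 1 (5.26%) in all 6, while in the regulatory particle 14 of 17 genes (82.4%) had a peak and 5 (29.4%) had one in all 6. The median gene span was 12013 bases in the core, with 27284.5 bases in the alpha ring and 5660 bases in the beta ring. In the regulatory particle it was 16009 bases. Over all genes it was 30909.5 bases for genes with a peak and 13896 bases for genes without. The 29.4% depends on the midpoint rule, since PSMC4, PSMD13 and PSMD14 also had a peak in all 6 libraries when any overlap was counted. The part of span and of mRNA level in the split between the particles was not tested. No difference between the roles was tested either, because the genes of a complex are not replicates.

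**Figure D1:**
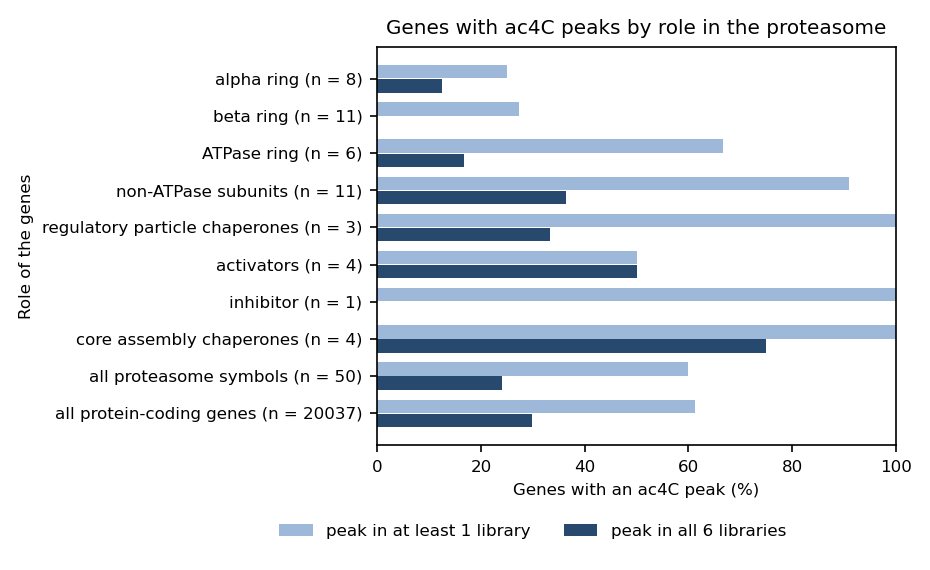
Share of genes (x axis, %) with a peak in at least 1 library (light bars) or in all 6 libraries (dark bars) for each role (y axis, n is the number of genes). The alpha and beta rings sit at 25% and 27.3%, below the 61.3% of all protein-coding genes, and the non-ATPase subunits of the regulatory particle sit at 90.9%.

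In the alpha ring, PSMA5 and PSMA7 had peaks and PSMA1, PSMA2, PSMA3, PSMA4, PSMA6 and the testis subunit PSMA8 had none. PSMA7 held 1 peak in each of the 6 libraries, at chr20:62140818-62140944, with the same bounds and a score of 3100 throughout, 2450 bases into the gene. PSMA5 had 2, 0 and 0 peaks in the control and 1, 1 and 0 in the knockdown libraries. These PSMA5 values overlapped, and its peaks scored from 53.42 to 75.7, near the bottom of the scale.

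In the beta ring, peaks lay in PSMB2 and PSMB3, which have no proteolytic site, and in PSMB5, which carries the chymotrypsin-like site. PSMB2 had 0, 0 and 2 peaks in the control and 1, 2 and 1 in the knockdown libraries. The single control library with PSMB2 peaks, replicate 3, kept the groups overlapping, and without it PSMB2 would have had peaks in all 3 knockdown and neither remaining control library. That depended on the midpoint rule as well, since control replicate 1 listed a peak of score 314.32 across the PSMB2 start whose midpoint lay outside the gene.

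PSMB5 had 0, 2 and 1 peaks in the control and 1, 0 and 0 in the knockdown libraries. Its region 75 bases inside the gene start, chr14:23034684-23035145, was listed in control replicates 2 and 3 (scores 301.59 and 154.62) and in no knockdown library. PSMB3 had 1, 1 and 0 peaks in the control and 0, 1 and 1 in the knockdown libraries, all at chr17:38753150-38753334. The remaining beta genes had no peak in any library: PSMB1, PSMB4, the catalytic PSMB6 and PSMB7, the immunoproteasome subunits PSMB8, PSMB9 and PSMB10, and the thymus subunit PSMB11.

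Among the ATPases, PSMC1, PSMC2, PSMC3 and PSMC4 had peaks and PSMC5 and PSMC6 had none. PSMC1, whose product takes part in opening the gate of the core, had 2, 2 and 2 peaks in the control and 3, 2 and 2 in the knockdown libraries. A pair of its regions, chr14:90259160-90259213 and chr14:90260115-90260211, had the same bounds in all 6 libraries. The first of them scored 263.24, 174.03 and 338.9 in the controls and 1649.93, 374.75 and 348.22 in knockdown libraries, so its scores did not overlap, while its percentiles did (29.3, 12.1 and 20.1 against 50.1, 26.7 and 21.1). The additional peak in knockdown replicate 1 lay where the span of NRDE2 overlaps that of PSMC1.

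PSMC1 and PSMC4 also had a peak across the gene start in every library that the midpoint rule left out, because it reached further upstream than into the gene. For PSMC1 it covered chr14:90256495-90256600, starting 58 bases upstream, with scores of 1776.09, 3100 and 1929.83 in the controls and 3100, 2019.05 and 3100 in knockdown libraries. For PSMC4 it scored 511.17, 515.08 and 213 in the controls and 590.45, 201.96 and 188.98 in knockdown libraries. Neither set of scores separated the groups.

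By midpoint, PSMC4 had 0, 1 and 1 peaks in the control and again 0, 1 and 1 in the knockdown libraries. PSMC3 had 0, 0 and 1 peaks in the control and 0, 1 and 1 in the knockdown libraries. PSMC2 had 2 peaks in control replicate 2, 2 in knockdown replicate 1 and none elsewhere. All PSMC2 peaks were on the strand of PSMC2, and by position they also lay in the span of SLC26A5. The overlaps named here with SLC26A5, NRDE2, ATG4A and CEP76 were taken by position, without regard to strand.

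Of the 11 non-ATPase subunits of the regulatory particle, 10 had a peak. PSMD3, a structural subunit of its lid, had the most peaks of the 50 genes. It held 2, 3 and 4 peaks in the control and 5, 3 and 4 in the knockdown libraries. The groups overlapped, at 3 ± 1 and 4 ± 1 peaks (SD, n = 3 each; two-sided exact permutation test, p = 0.5).

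PSMD3 also held 2 regions that separated the groups. Its start region, chr17:39980797-39981190, scored 3100 in every library and so has no usable order. The region 3487 bases into the gene, chr17:39984294-39984484, scored 202.57, 402.04 and 348.34 in the control and 843.16, 957.15 and 1176.69 in the knockdown libraries. All 3 knockdown scores stood above all 3 control scores.

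Among the regions found in all 6 libraries, this PSMD3 region sat at percentiles 22.7, 29.4 and 20.7 in the controls and 31.4, 53.4 and 54.8 in knockdown libraries. The group means were 24.3 ± 4.55 and 46.5 ± 13.1 (SD, n = 3 each), a difference of 22.2 points (two-sided exact permutation test, p = 0.1, and 3 against 3 libraries cannot go lower). A further PSMD3 region, chr17:39986575-39986712, had a peak in all 3 knockdown libraries, with scores of 82.66, 195.15 and 157.08, and in no control library. It was the single region of the 63 in proteasome genes that was present throughout one group and nowhere in the other (1.59%).

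Over all regions in protein-coding genes, 1.17% met that criterion and 0.829% met it in the knockdown direction, so 1 region of 63 stands near the background. When each library was cut to the same number of highest-scored peaks, the low-scoring PSMD3 region no longer met the criterion and the count was 0. The region chr17:39988683-39988819, was listed in control replicates 2 and 3 and knockdown replicates 1 and 3.

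**Figure D2:**
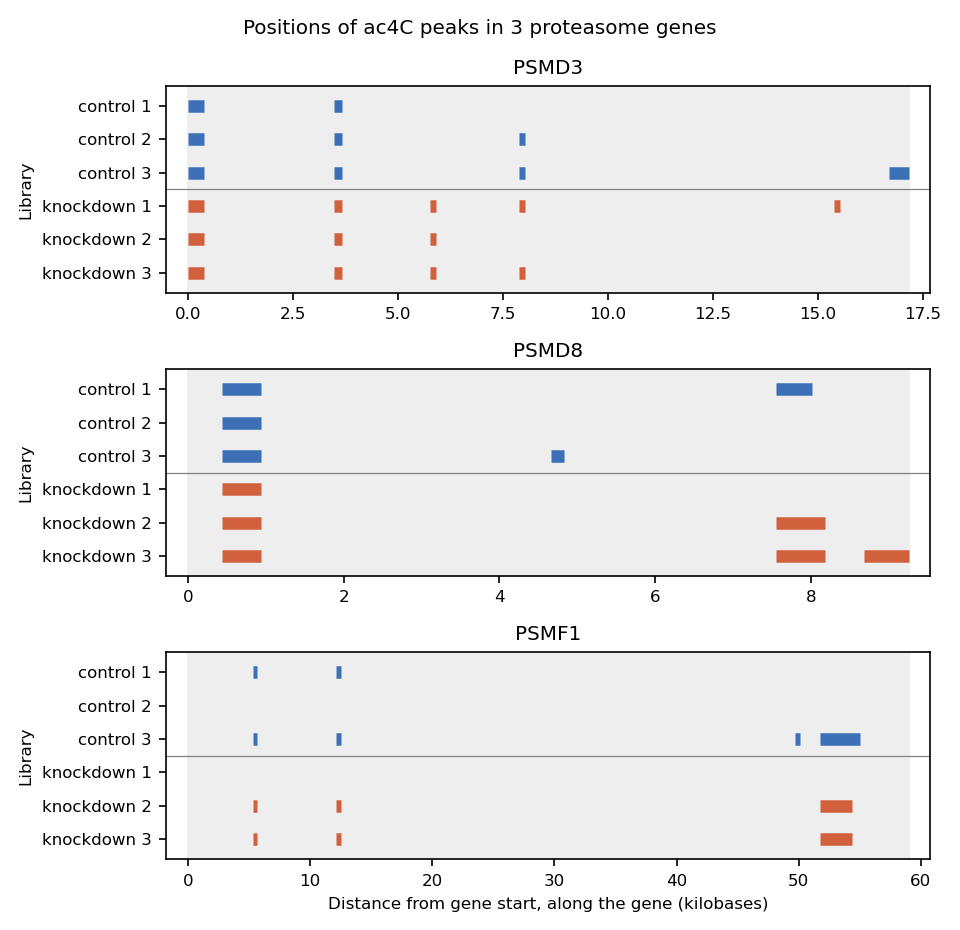
Positions of peaks in PSMD3, PSMD8 and PSMF1 (x axis, distance from the gene start in kilobases, grey area the gene span) in each library (y axis), control in blue and knockdown in orange, with narrow peaks widened to be visible. In PSMD3 the peak 5768 bases from the start appears in the 3 knockdown libraries only, and PSMF1 has no peak in control replicate 2 and knockdown replicate 1.

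PSMD8, another lid subunit, had 2, 1 and 2 peaks in the control and 1, 2 and 3 in the knockdown libraries. Its region 438 bases into the gene, chr19:38375009-38375509, was found in all 6 libraries at percentiles 67.3, 60.5 and 87.8 in the controls and 83.1, 64.8 and 77.0 in knockdown, which overlapped. PSMD1, a scaffold to which ubiquitin receptors bind, had 1, 3 and 1 peaks in the control and 3, 1 and 1 in the knockdown libraries. Its start region was found in all 6 libraries, and the further peaks were in control replicate 2 and knockdown replicate 1 alone, each in a region of its own.

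PSMD12, a lid subunit, had 1 peak in every library, at chr17:67366412-67366627 across its start, with scores of 1423.55, 1962.88 and 1856.66 in the controls and 3100, 2143.89 and 1593.75 in knockdown libraries. The lowest and highest of the knockdown scores lay on either side of control replicates 2 and 3, so the groups overlapped. PSMD4, a ubiquitin receptor, had 0, 1 and 1 peaks in the control and 1, 1 and 1 in the knockdown libraries. PSMD2, a scaffold like PSMD1, had 0, 1 and 1 in both groups.

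PSMD14, the deubiquitinase of the lid, had 0, 1 and 1 peaks in the control and 2, 0 and 1 in the knockdown libraries by midpoint. Its start region was nevertheless found in all 6 libraries, with scores of 289.77, 455.92 and 370.21 in the controls and 1017.79, 171.81 and 315.08 in knockdown. PSMD13 had 2 peaks in knockdown replicate 1 and none in the others by midpoint, although its start region, chr11:236546-237144, had a peak in all 6 libraries. In 5 of them the midpoint fell upstream of the gene start, so the apparent restriction of PSMD13 to 1 library comes from where the midpoint fell.

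The other lid subunits with peaks were PSMD7, the partner of PSMD14, and PSMD11. PSMD7 had 0, 1 and 1 peaks in the control and 1, 0 and 1 in the knockdown libraries, all in 1 region at the end of the gene. PSMD11 had 1, 0 and 1 in the control and 2, 0 and 0 in the knockdown libraries. PSMD6 was the one subunit of this group with no peak.

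All 3 chaperones that help to assemble the base of the regulatory particle had peaks. PSMD9 had 2, 1 and 1 peaks in the control and 1, 1 and 1 in the knockdown libraries, with a start region, chr12:121888731-121888994, in all 6. PSMD5 had 2 peaks in control replicate 2 and none elsewhere. PSMD10, also known as gankyrin, had 1 peak in control replicate 2 and 1 in knockdown replicate 1, both in a stretch shared with the span of ATG4A.

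Of the activators, PSME3 and PSME4 had peaks in all 6 libraries, and PSME1 and PSME2, the interferon-induced pair that accompanies the immunoproteasome, had none. PSME3, the nuclear activator, had 2, 1 and 1 peaks in the control and 1, 2 and 1 in the knockdown libraries, in 1 merged region, chr17:42833142-42834376, that reached 3100 in each library. PSME4, which encodes a large activator with roles in chromatin, had 1 peak in each library at chr2:53949143-53949283, with scores of 559.29, 758.47 and 972.12 in the controls and 499.01, 1266.48 and 526.49 in knockdown. The knockdown scores spread over the whole control range.

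PSMF1, an inhibitor of the core particle, had 2, 0 and 4 peaks in the control and 0, 3 and 3 in the knockdown libraries. Its peaks were thus absent from 1 library of each group. The same pair of libraries, control replicate 2 and knockdown replicate 1, were the only ones with peaks in PSMC2 and PSMD10, and the ones with more than 1 peak in PSMD1, so that these patterns ran across the groups. They were the pair with the most peaks in all, at 22619 and 28752, and the part of list length in these patterns was not tested.

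All 4 chaperones of core assembly had peaks, and PSMG2, PSMG3 and PSMG4 had them in all 6 libraries. PSMG3 had 1 peak per library in the same region, chr7:1569124-1569993, 39 bases inside the gene start, with scores of 389.56, 918.64 and 1256.65 in the controls and 3100, 1723.35 and 1348.69 in knockdown libraries. Every knockdown score was above every control score, with control replicate 3 and knockdown replicate 3 the closest. The percentiles were 40.3, 52.5 and 55.7 in the controls and 83.1, 69.3 and 58.5 in knockdown, a difference of 20.8 points between means of 49.5 ± 8.11 and 70.3 ± 12.3 (SD, n = 3 each; two-sided exact permutation test, p = 0.1).

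PSMG1, which pairs with PSMG2 to guide alpha ring assembly, had lower percentiles in knockdown in its start region, chr21:39183252-39183851, but 4 of its 6 scores were at or above the common value of 3100. The percentiles were 93.5, 99.2 and 87.8 in the controls and 83.1, 64.0 and 52.1 in knockdown, and the means differed by -27.1 points (two-sided exact permutation test, p = 0.1, n = 3 each). The scores were 3100, 3109.73 and 3100 in the controls and 3100, 1404.62 and 1067.12 in knockdown. Knockdown replicate 1 therefore tied with control replicates 1 and 3 at 3100, and with the scores themselves the groups overlapped. A tie at 3100 ranks at percentile 83.1 in knockdown replicate 1 and at 93.5 and 87.8 in these controls, since the share of peaks at 3100 differs between libraries.

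PSMG2 had 2, 1 and 3 peaks in the control and 1, 1 and 1 in the knockdown libraries, at 2 ± 1 and 1 ± 0 (SD, n = 3 each; two-sided exact permutation test, p = 0.4). The groups met at 1 peak through control replicate 2, and without it the numbers no longer overlapped. The share of all genes that separate with this library left out was not computed. In control replicate 3 the peaks chr18:12702426-12702772 and chr18:12702894-12703164 lay in 1 region, which every other library listed as a single peak. The first of them lay in a stretch shared with CEP76. By region, the groups differed only in chr18:12706550-12706721, listed in control replicates 1 and 3 and in no knockdown library. The region common to all libraries, chr18:12702426-12703164, sat at percentiles 28.7, 29.3 and 16.4 in the controls and 20.1, 6.54 and 2.09 in knockdown, which overlapped (two-sided exact permutation test, p = 0.2, n = 3 each).

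PSMG4 had 2, 2 and 2 peaks in the control and 2, 2 and 1 in the knockdown libraries. Its first region had peaks in all 6 libraries and its second, at the end of the gene, in all but knockdown replicate 3. Of the proteins that only bind a proteasome subunit, PSME3IP1 had 0, 1 and 1 peaks in the control and 1, 1 and 2 in the knockdown libraries, and PSMC3IP, a factor of meiotic recombination, had none on its strand. Peaks on the opposite strand within PSMC3IP, in 5 libraries, lay in the neighbouring gene MLX.

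**Figure D3:**
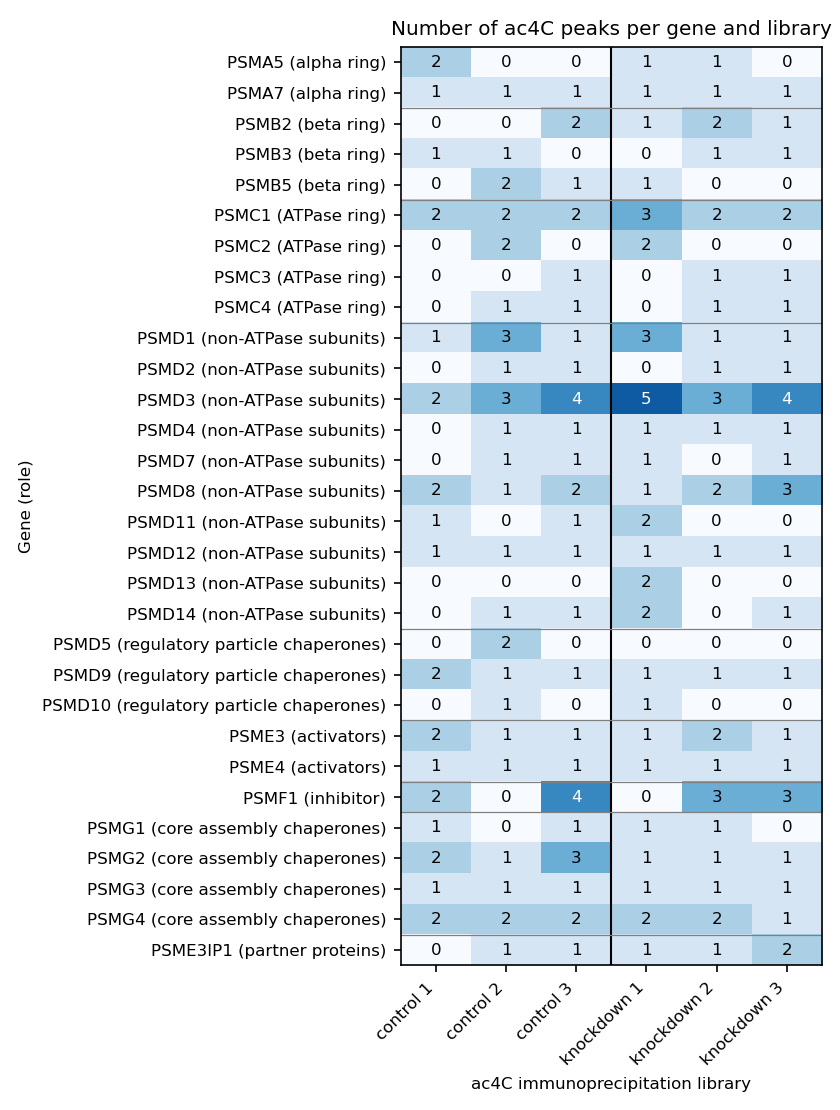
Number of peaks (printed in each cell) for the 30 genes with a peak (y axis, grouped by role) in each library (x axis), with a line between control and knockdown libraries. In no gene do the control and knockdown numbers separate, and 12 genes have a peak in every library.

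No proteasome gene had peaks throughout one group and nowhere in the other, a criterion that 0.7% of all genes with a peak met. In none did the peak numbers of the groups fail to overlap, against 2.22% of all genes with a peak. Across all genes tested, the exact permutation p-values of single genes gave an adjusted p of 1 for each proteasome gene with a peak. With 3 against 3 libraries the p of this test cannot go below 0.1. After adjustment over 12284 genes it therefore cannot tell single genes apart.

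Summed over the 50 genes there were 26, 32 and 36 peaks in the control and 37, 31 and 31 in the knockdown libraries, at 31.3 ± 5.03 and 33 ± 3.46 (SD, n = 3 each). The difference of 1.67 peaks was smaller than the spread between replicates. As a share of all peaks of a library, the proteasome genes took 0.143%, 0.141% and 0.179% in the controls and 0.129%, 0.173% and 0.163% in knockdown libraries. Without knockdown replicate 1, the longest list, the difference turned from 1.67 to -0.333 peaks, and without control replicate 1 it was -1.

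The peaks of the proteasome genes fell into 63 merged regions. Of these, 17 (27.0%) had a peak in all 6 libraries, against 21.9% of all regions in genes, and 19 (30.2%) in 1 library, against 38.7%. Of the 17, 12 (70.6%) had the same bounds in all 6 libraries, close to the 69.3% of all such regions, and 3 (17.6%) scored 3100 or more in all 6, against 10.0%. These 3 were in PSMA7, PSMD3 and PSME3.

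Many regions lay at the ends of the genes. Of the 63, 16 (25.4%) started within 500 bases of the gene start, against 16.8% of all pairs of region and gene, and 11 (17.5%) reached upstream of it, against 8.64%. Another 9 (14.3%) ended within 500 bases of the gene end, against 8.22%. A window of 500 bases takes a larger share of a shorter gene. The median span was 16581 bases for proteasome genes with a peak and 30909.5 bases for all genes with a peak. The part of gene length in these shares was not tested. No exon annotation was used, so whether a region is coding or untranslated is not given.

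Of the 17 regions found in all 6 libraries, 3 (17.6%) had score percentiles that did not overlap between the groups, against 11.7% of all such regions. They were the PSMD3 and PSMG3 regions, higher in knockdown, and the PSMG1 region, higher in control by percentile but tied at 3100 in libraries of both groups. With the scores themselves in place of percentiles, a choice made after the data were seen, the count was again 3, with PSMC1 in place of PSMG1, against 12.6% of all regions. The PSMD3 and PSMG3 regions met both criteria. Any region whose percentiles separate 3 against 3 libraries gives p = 0.1 in the two-sided exact permutation test. The p-values given for the PSMD3, PSMG3 and PSMG1 regions therefore add nothing to their separation, by which they were named.

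**Figure D4:**
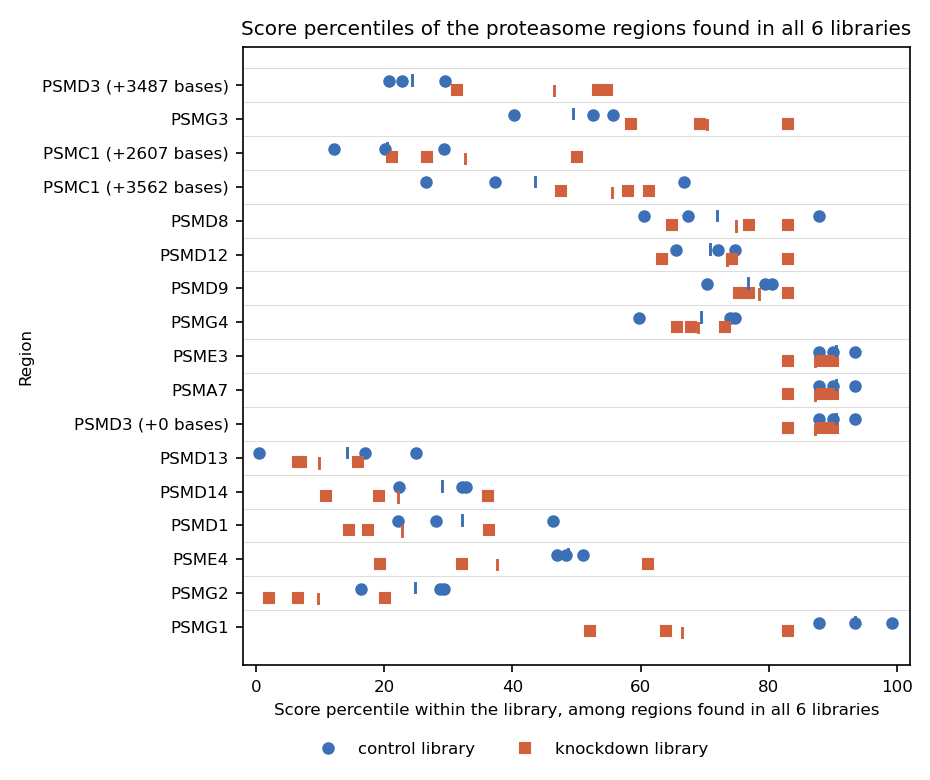
Score percentile within each library (x axis) of the 17 regions found in all 6 libraries (y axis, ordered by knockdown minus control, with the distance from the gene start where a gene has a pair of regions). Blue circles are control and orange squares knockdown libraries, ticks mark group means, and the groups separate for PSMD3 (+3487 bases), PSMG3 and PSMG1.

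Peak sets of single libraries did not follow the groups. The Jaccard index over the 63 regions, the share of regions found in either of 2 libraries that both hold, was highest for knockdown replicates 2 and 3, at 0.692, and almost as high for control replicate 3 and knockdown replicate 3, at 0.690. It was lowest for knockdown replicates 1 and 2, at 0.408. Control replicate 1 shared more with knockdown replicate 2 (0.667) than with control replicate 2 (0.432).

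Requiring the midpoint inside the gene mattered most for genes with a peak across their start. With any overlap counted, the same 30 genes had peaks. The number with a peak in all 6 libraries was 16 in place of 12, by the addition of PSMC4, PSMD13, PSMD14 and PSMG1. The share of all protein-coding genes with any overlap counted was not computed. Under that rule the control and knockdown means were both 36.7 peaks.

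Outside the symbol rule, 24 further genes were examined that encode subunits outside the PSM symbols or factors acting with the proteasome, such as assembly and shuttle factors, enzymes of the ubiquitin pathway and transcriptional regulators. A peak was found in 20 of these (83.3%, against 61.3% of all protein-coding genes), and in all 6 libraries for 13 (54.2%, against 29.8%). Their median span was 30899.5 bases, against 24115 bases over all protein-coding genes. None had peaks throughout one group and nowhere in the other, against 0.7% of all genes with a peak, and none had peak numbers that did not overlap, against 2.22%. ADRM1, a ubiquitin receptor of the regulatory particle, had 1, 1 and 0 peaks in the control and 1, 0 and 1 in the knockdown libraries. SEM1, a small lid subunit, had 2, 2 and 2 against 2, 1 and 2.

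POMP, which matures the core particle, had no peak. NFE2L1, the transcription factor that raises proteasome gene expression when the proteasome is inhibited, had 2, 2 and 2 peaks in the control and 3, 2 and 3 in the knockdown libraries, which overlapped (two-sided exact permutation test, p = 0.4, n = 3 each). USP14, a deubiquitinase that binds the regulatory particle, had 3, 3 and 2 against 2, 1 and 1, which met at 2 peaks (two-sided exact permutation test, p = 0.2, n = 3 each).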

How the data were processed

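Each of the 6 immunoprecipitation libraries has a list of peaks on GRCh38, the build in the submitters' processing notes. The score of a peak was deposited by the authors without a unit. Peaks were called per library and limited to mRNA, with peak names like those of MACS. The aligner and the caller's settings are not given in the sources used here, and the 6 input libraries were not analysed here.

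Gene spans came from the RefSeq table of GRCh38.p14. It lists no strand, so strand was taken from RefSeq start sites for 15843 genes and otherwise from the majority of peaks, a rule that gave the listed strand in 9293 of 9361 genes tested (99.3%). It set the strand of 3 proteasome genes (PSMA7, PSMD4 and PSMG3), and 3 more without a listed strand (PSMB1, PSMB6 and PSMB7) had no peak to set it from. Peaks on a strand that overlapped by at least 1 base in any library were merged into 41755 regions. Score percentiles are mid-ranks among regions found in all 6 libraries.

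The proteasome genes and the gene lists were chosen with earlier results of these data known. Named by rule were genes or regions that separated the groups, the 2 genes with the most peaks per prefix, genes with no peak, and ADRM1, POMP, SEM1 and NFE2L1. The other genes with a peak and USP14 were named after their values were seen. Genes were compared by presence, by non-overlapping numbers and by two-sided exact permutation tests with Benjamini-Hochberg adjustment over the 12284 genes with a peak. Alternatives changed the score filter, strand, overlap, merging, ranking and the libraries used. The code was tested on simulated lists over 41755 regions with 200 planted in one group, and recovered 200, by construction. Python 3.11.15, numpy 2.4.6, pandas 2.3.3, scipy 1.17.1 and matplotlib 3.10.9 were used.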

Additional observations from a re-analysis of the deposited data

How the results depend on the processing

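The count of proteasome genes with peaks throughout one group and nowhere in the other was 0, and 0 again under the score filters, either strand, any overlap and genes with unshared spans. It became 1 (PSMB2) when a difference of at least 2 libraries was required. With each library left out in turn it ranged from 0 to 1, the 1 being PSMB2 without control replicate 3. The count of genes with non-overlapping peak numbers ranged from 0 to 1 in the same way, with PSMG2 without control replicate 2 and PSMB2 without control replicate 3. The count of regions in one group, 1, was 0 after keeping the better-scored 50% of each list, and 0 after cutting all lists to equal length by score. It rose to 3 with a difference of at least 2 libraries (PSMD3, PSMB5 and PSMG2), and ranged from 1 to 2 with a library left out, the additional region being in PSMB5 without control replicate 1 and in PSMG2 without control replicate 2. The count of shared regions with non-overlapping percentiles, 3, ranged from 4 to 6 with a library left out, and fewer libraries separate more easily by construction. It was 6 without control replicate 1 and 5 without control replicate 3, and PSMD3, PSMG1 and PSMG3 were among the regions each time. The shares of all genes and regions that meet the criteria under these alternatives were not computed, so these counts have no background beside them. The difference in summed peaks, 1.67, ranged from -1 to 4 with a library left out, and was 0 with any overlap. Each of these moved from 1.67 by less than the control SD of 5.03. The lists give no depth, so what it limits is unknown.

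Replicate numbers did not pair the libraries. Taking each library minus its group mean, same-numbered pairs correlated at -0.178, -0.121 and -0.00359, and 0 of 6 libraries correlated best with their own number. With the replicate number as a block, 0 genes differed the same way in every pair. The differences in summed peaks within the pairs were 11, -1 and -5, and their mean is 1.67 by construction. Of 330 values of single genes under alternatives, 2 moved by more than 1 SD and 3 changed sign.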
